A study of Homo sapiens with 6 samples.

Results

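The genes described here encode the Aurora A and Aurora B kinases, Polo-like kinase 1, the kinase NEK2 and the proteins that activate, carry or follow them on the mitotic spindle. They are AURKA, AURKB, TPX2, BORA, PLK1, INCENP, BIRC5, CDCA8, NEK2 and TACC3, and they are 10 of the 67130 genes in the expression table. The genes were listed by symbol with earlier results of these data known, so counts over them are a description and not an independent test. RNA-seq was performed on RPE1 cells, a human line of retinal pigment epithelium kept dividing by hTERT, with a lentiviral Tet-On hairpin RNA (shRNA) directed at OFD1, a protein of the centriole and its satellites. All 6 samples came from this line: 3 were grown without doxycycline (control, genotype labelled WT) and 3 with 200 ng/mL doxycycline (OFD1-depleted, genotype labelled OFD1 knockdown), and the time given was 72 h for both groups. Whether the line is 1 clone is not stated, and the data hold 0 samples given doxycycline without the hairpin, so effects of the drug, of the hairpin and of OFD1 loss cannot be told apart. The comparison asks how the transcripts of the mitotic kinases stood in RPE1 cells depleted of OFD1.

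All 10 genes were lower in OFD1-depleted cells. TACC3, a microtubule-binding protein of the spindle, was at 22.4% of its control level and TPX2, an activator of Aurora A, at 25.3%, while the other 8 genes were between 38.3% (BORA) and 48.2% (AURKA) of control. Each of the 10 passed the threshold (adjusted p under 0.05 from limma, Benjamini-Hochberg over all 12025 genes tested), with adjusted p-values between 8.7e-06 and 0.00696. Over all genes tested, 11.9% were called lower, 4.39% were called with a log2 fold change of -1 or less, as all 10 of these genes were, and 5.07% were called higher, as 0 of them were. The median log2 fold change was -1.29 over the 10 genes and -0.0318 over all genes tested.

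Aurora A sits on centrosomes and spindle microtubules, where TPX2 binds and activates it. BORA works with Aurora A to switch on PLK1 before mitosis, and PLK1 then acts at centrosomes, kinetochores and the midbody. Aurora B is the kinase of the chromosomal passenger complex, in which INCENP is the scaffold and BIRC5 (survivin) and CDCA8 (borealin) bring the complex to the inner centromere and later to the central spindle. NEK2 loosens the linker between centrosomes, and TACC3, phosphorylated by Aurora A, joins clathrin and CKAP5 (ch-TOG) in bridges between spindle microtubules. Transcripts of these genes normally peak in G2 and M phase and are low in cells that have left the cell cycle. Promoters of such genes often carry a cell cycle homology region (CHR), bound by MuvB complexes, with CCAAT boxes, bound by NF-Y, in front of it.

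The promoters of the 10 genes were searched for these letters as a description, with no test. RefSeq promoter windows on GRCh38.p14, from 250 bases before to 50 bases after the start, were read for 7 of the 10 genes (AURKB, BORA, PLK1, INCENP, CDCA8, NEK2 and TACC3), and AURKA, TPX2 and BIRC5 were not matched. On either strand, the CHR letters TTTGAA were present in 4 of the 7 genes, against 15.2% of all 35116 promoter windows and 10.4% of those of genes tested. CCAAT was present in 6 of the 7, against 34.6% of all windows and 34.9% of those of genes tested, and both motifs were present in the same 4 genes that held the CHR letters, against 5.9% and 4.07%. The GC box letters GGGCGG were present in 6 of the 7, against 15786 of all 35116 windows and 67.0% of those of genes tested. An E2F-like site, searched as TTTGGCGC, TTTCCCGC or TTTCGCGC, was found in 0 of the 7, against 2.74% and 4.42%, which says only that these letters are not in these windows. The stretches below are shown because they hold the CHR and CCAAT letters of the genes that fell. They read 5′ to 3′ on the strand of the gene, and capitals mark TTTGAA and CCAAT, the latter written ATTGG where it lies on the other strand.
PLK1 (chr16:23678804-23678877, plus strand): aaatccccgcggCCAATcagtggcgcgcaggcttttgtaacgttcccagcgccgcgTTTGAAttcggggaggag
INCENP (chr11:62123892-62124018, plus strand): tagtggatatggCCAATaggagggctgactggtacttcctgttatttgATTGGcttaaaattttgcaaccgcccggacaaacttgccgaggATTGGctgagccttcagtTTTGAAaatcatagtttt
CDCA8 (chr1:37692389-37692514, plus strand): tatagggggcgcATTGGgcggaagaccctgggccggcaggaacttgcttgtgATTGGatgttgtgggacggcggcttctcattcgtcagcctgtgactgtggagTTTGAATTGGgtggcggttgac
BORA (chr13:72727734-72727875, plus strand): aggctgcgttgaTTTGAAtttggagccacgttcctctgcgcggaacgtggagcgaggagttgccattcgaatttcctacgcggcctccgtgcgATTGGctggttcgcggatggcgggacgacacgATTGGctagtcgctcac
NEK2 (chr1:211675639-211675699, minus strand): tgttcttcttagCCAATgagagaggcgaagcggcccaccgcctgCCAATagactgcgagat
AURKB (chr17:8210362-8210390, minus strand): accagcgcccagATTGGggctagtgtgct

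In PLK1, INCENP and CDCA8 the TTTGAA lay close to the RefSeq start, at -29 to -24, -10 to -5 and -23 to -18, and at least 1 CCAAT lay in front of it. CDCA8 differed in that a further CCAAT match on the other strand shared its last base with the CHR letters. In BORA the order was turned around, with TTTGAA at -177 to -172 and both CCAAT matches nearer to the start, the closer of them at -64 to -60. NEK2 held a pair of CCAAT matches and no TTTGAA, and AURKB, for which the table gives 2 nearby starts, held 1 CCAAT match in both windows. TACC3, with the deepest fall of the 10 genes, held none of the letters searched in its window. That window runs from 1720381 to 1720680 on chromosome 4, inside the span of the gene in the expression table, which begins at 1712891. The PLK1 window, from 23678639 to 23678938, likewise lies inside the span of its gene, which begins at 23677656. Both AURKB windows, on the minus strand, end at 8210475 and 8210499, short of 8210600, where its span ends. The letters around these other starts were not searched. The matches are a description of the letters and no evidence of binding.

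Values were given as FPKM, fragments divided by the length of the transcript and by the size of the library, so levels of different genes can be set side by side. The FPKM of all genes summed to between 408302 and 493510 per sample, and the depth of the libraries is not known from these values. No 2 samples held identical values. OFD1 itself had 3.34, 3.62 and 3.44 FPKM in control replicates 1, 2 and 3 and 0.795, 0.763 and 1.43 FPKM in OFD1-depleted replicates 1, 2 and 3, a log2 fold change of -1.75 (SE 0.255, limma adjusted p = 0.00085). The groups did not overlap for OFD1, and its highest value after depletion was in replicate 3. The tissue label reads retina, and 0 of 10 neural retina markers reached a mean of 1 FPKM (6 were at 0 in every sample). Their summed level was 0.245 to 0.446 FPKM in control and 0.317 to 0.67 FPKM in OFD1-depleted samples. Of 9 markers of pigment epithelium, 1 (MITF) reached a mean of 1 FPKM, DCT was at 0 in every sample, RPE65 had at most 0.209 FPKM and SERPINF1 at most 1.11 FPKM. The summed level of these 9 markers was 6.39 to 7.32 FPKM in control and 7.84 to 11.3 FPKM in OFD1-depleted samples. The highest sum came from BEST1, at 4.33 FPKM in OFD1-depleted replicate 2 alone, and without it the range was 6.35 to 7.31 FPKM in control and 6.99 to 8.7 FPKM after depletion, so the groups overlapped. The part of these markers in the results was not tested. The 6 epithelial and mesenchymal markers summed to 4533 to 4792 FPKM in control and 3941 to 4335 FPKM after depletion, mostly VIM, which with CDH2 was lower in every depleted sample, while KRT8 (139.6 to 150.8 and 153.2 to 218.2 FPKM) and KRT18 (111.4 to 122.6 and 140.9 to 189.2 FPKM) were higher in every depleted sample. EPCAM was at 0 in every sample and CDH1 at no more than 0.0492 FPKM, and CD68 of 5 blood and endothelial markers (summed level 35.9 to 41.0 FPKM in control and 31.7 to 40.3 FPKM after depletion) reached a mean of 1 FPKM. Mitochondrially encoded genes took 13.1%, 8.66% and 13.8% of the FPKM in control and 15.6%, 16.3% and 19.3% in OFD1-depleted samples, and all 10 genes were still called lower when the samples were scaled to the same total without them. The study describes the columns of its RNA expression data as biological replicates. In bulk RNA fewer mitotic cells and less RNA per cell cannot be told apart.

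AURKA (ENSG00000087586, GRCh38 chromosome 20 from 56369389 to 56392337, minus strand) encodes Aurora A. It had 26.1, 33.1 and 28.3 FPKM in control replicates 1 to 3 and 15.0, 13.6 and 13.6 FPKM in OFD1-depleted replicates 1 to 3. Every depleted sample lay below every control sample, and the spread was narrower after depletion. The mean went from 29.1 ± 3.58 to 14.0 ± 0.794 FPKM (SD, n = 3 each), and the log2 fold change was -1.04 (SE 0.134, limma adjusted p = 0.000366). It was the smallest change among the 10 genes, ranked 506 of 12025 from the lowest fold change upwards. Its pseudogene copies had little signal, AURKAP1 with a highest value of 0.233 FPKM and AURKAP2 at 0 in every sample.

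TPX2 (ENSG00000088325, chromosome 20 from 31739271 to 31801805, plus strand) encodes the spindle factor that holds Aurora A in its active form. Its values were 42.9, 48.1 and 46.1 FPKM in control and 11.9, 11.4 and 11.3 FPKM in OFD1-depleted replicates. Control and depleted samples were far apart, and the 3 depleted samples were nearly equal. From 45.7 ± 2.64 to 11.5 ± 0.352 FPKM (SD, n = 3 each), the log2 fold change was -1.97 (SE 0.12, limma adjusted p = 8.7e-06), rank 42 of 12025. TPX2 had the highest control mean of the 10 genes, and after depletion it stood below PLK1, BIRC5, AURKB and AURKA.

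TACC3 (ENSG00000013810, chromosome 4 from 1712891 to 1745171, plus strand) is an Aurora A substrate that stabilizes kinetochore fibres. It had 31.0, 37.6 and 33.8 FPKM in control and 8.03, 8.72 and 6.17 FPKM in OFD1-depleted replicates. Replicate 3 was the lowest depleted sample, and the groups did not overlap. The mean fell from 34.1 ± 3.32 to 7.64 ± 1.32 FPKM (SD, n = 3 each), and the log2 fold change was -2.15 (SE 0.155, limma adjusted p = 1.35e-05), rank 27 of 12025. TMEM129 overlaps TACC3 on the opposite strand, with a mean of 33.8 FPKM in control and 27.5 FPKM after depletion, and SLBP-DT overlaps it on the same strand at 0.786 and 0.618 FPKM. The strand setting of the counting is not stated, so how shared reads were divided between these genes is uncertain.

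BORA (ENSG00000136122, chromosome 13 from 72727749 to 72756198, plus strand) encodes the cofactor with which Aurora A phosphorylates PLK1, and it was the lowest of the 10 genes in level. Control replicates had 2.9, 3.05 and 2.86 FPKM, and OFD1-depleted replicates had 0.971, 0.71 and 1.7 FPKM. The controls were close together, and the depleted samples were spread more widely, with replicate 3 highest, as for OFD1. The mean fell from 2.94 ± 0.103 to 1.13 ± 0.512 FPKM (SD, n = 3 each), and the log2 fold change was -1.39 (SE 0.286, limma adjusted p = 0.00696). Without OFD1-depleted replicate 3 it was -1.70 (adjusted p = 0.00207), and without a filter on low genes the call was lost (-1.39, adjusted p = 0.0734). With a pseudocount of 1 in place of 0.1 the log2 fold change was -0.92. DIS3 overlaps the end of BORA on the opposite strand, with a mean of 6.26 FPKM in control and 6.04 FPKM after depletion, so the share of reads between the pair is uncertain.

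PLK1 (ENSG00000166851, chromosome 16 from 23677656 to 23690367, plus strand) had 42.2, 45.2 and 46.0 FPKM in control and 16.1, 19.4 and 16.4 FPKM in OFD1-depleted replicates. Both groups were tight, with depleted replicate 2 the highest of its group. The log2 fold change was -1.36 (SE 0.127, limma adjusted p = 4.8e-05), from 44.5 ± 2.03 to 17.3 ± 1.78 FPKM (SD, n = 3 each), or 38.9% of control. After depletion PLK1 had the highest mean of the 10 genes. The genes that overlap it on the opposite strand carried almost no signal, ERN2 at 0 in all samples and AC008870.3 at no more than 0.0543 FPKM.

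**Figure D1:**
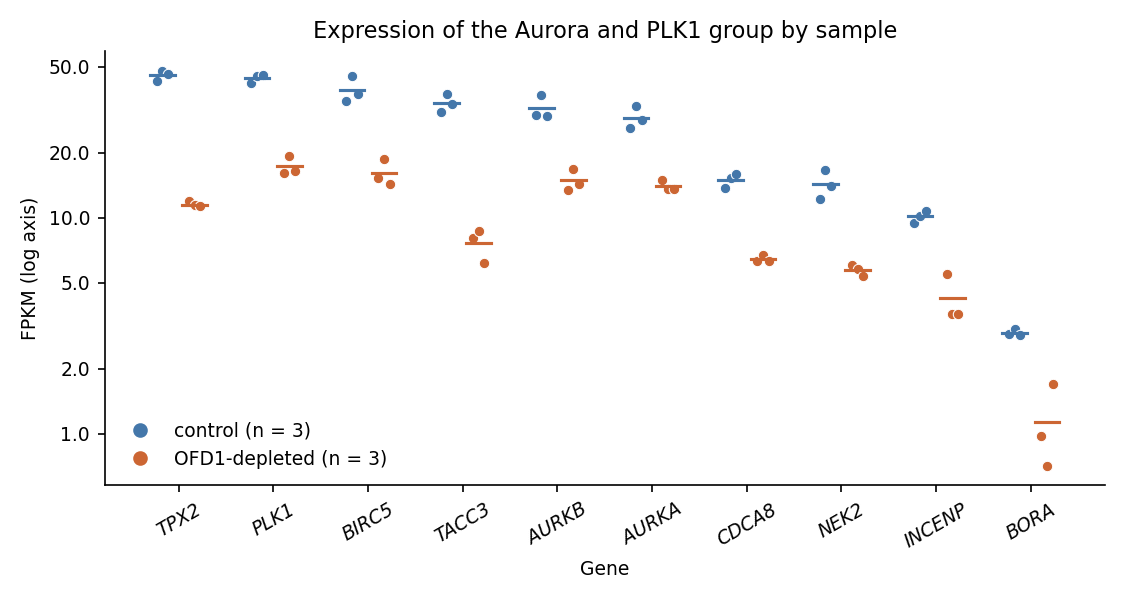
FPKM on a log axis for each of the 10 genes, ordered by control mean, with points for the 3 control and 3 OFD1-depleted samples and bars for group means. No gene has overlapping groups, and TPX2 and TACC3 show the widest gaps, with means of 45.7 and 11.5 FPKM for TPX2 and 34.1 and 7.64 FPKM for TACC3.

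The 4 genes of the chromosomal passenger complex stood at close to the same share of control, within the range from BORA (38.3%) to AURKA (48.2%). AURKB (ENSG00000178999, chromosome 17 from 8204733 to 8210600, minus strand), the kinase subunit, had 29.8, 37.1 and 29.6 FPKM in control and 13.4, 16.8 and 14.4 FPKM in OFD1-depleted replicates. It went from 32.2 ± 4.25 to 14.9 ± 1.76 FPKM (SD, n = 3 each), 46.2% of control, with a log2 fold change of -1.11 (SE 0.144, limma adjusted p = 0.000388). In both groups replicate 2 was the highest sample. Its pseudogene AURKBP1 was at 0 in every sample.

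BIRC5 (ENSG00000089685, chromosome 17 from 78214186 to 78225636, plus strand), the survivin subunit that reads phosphorylated histone H3, had 34.8, 45.4 and 37.4 FPKM in control and 15.3, 18.7 and 14.3 FPKM in OFD1-depleted replicates. Replicate 2 was again highest in both groups, and the groups did not overlap. Its log2 fold change was -1.28 (SE 0.151, limma adjusted p = 0.000224), from 39.2 ± 5.54 to 16.1 ± 2.3 FPKM (SD, n = 3 each), 41.1% of control.

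CDCA8 (ENSG00000134690, chromosome 1 from 37692481 to 37709719, plus strand), the borealin subunit, had 13.8, 15.3 and 15.9 FPKM in control and 6.29, 6.71 and 6.32 FPKM in OFD1-depleted replicates. The depleted samples differed little. The mean fell from 15.0 ± 1.1 to 6.44 ± 0.235 FPKM (SD, n = 3 each), and the log2 fold change was -1.20 (SE 0.129, limma adjusted p = 0.00012).

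INCENP (ENSG00000149503, chromosome 11 from 62123998 to 62153169, plus strand), the scaffold, had 9.5, 10.2 and 10.8 FPKM in control and 5.49, 3.6 and 3.6 FPKM in OFD1-depleted replicates. Depleted replicate 1 lay above the other depleted samples and below all controls. Its log2 fold change was -1.27 (SE 0.179, limma adjusted p = 0.00067), from 10.2 ± 0.627 to 4.23 ± 1.09 FPKM (SD, n = 3 each), and -1.47 without depleted replicate 1.

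NEK2 (ENSG00000117650, chromosome 1 from 211658657 to 211675630, minus strand), the centrosomal kinase, had 12.2, 16.7 and 14.0 FPKM in control and 6.03, 5.76 and 5.35 FPKM in OFD1-depleted replicates. The controls were more spread than the depleted samples, and the groups did not overlap. The mean fell from 14.3 ± 2.26 to 5.71 ± 0.342 FPKM (SD, n = 3 each), and the log2 fold change was -1.30 (SE 0.149, limma adjusted p = 0.000185). Its named copies NEK2P1, NEK2P2 and NEK2P4 were at 0 in all samples, and FDPSP8, a pseudogene inside its span, was at no more than 0.034 FPKM.

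The 3 depleted values lay below the 3 control values in all 10 genes, and 22.3% of all genes tested had this pattern. For each of the 10 genes the two-sided exact permutation test of FPKM gave p = 0.1, the smallest that 3 samples against 3 allow. Control replicate 2 held the highest control value in 7 genes and control replicate 3 in the other 3, while control replicate 1 was lowest in 8. Among the depleted samples, replicate 2 was highest in 5 genes, replicate 1 in 4 and replicate 3 in 1, BORA. Averaged over the 10 genes, OFD1-depleted replicates 1, 2 and 3 stood at -1.38, -1.40 and -1.44 on the log2 scale against the mean of the controls. No depleted sample was thus set apart from the others in the average, although replicate 3 had the deepest value for TACC3 (-2.44) and the shallowest for BORA (-0.76).

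**Figure D2:**
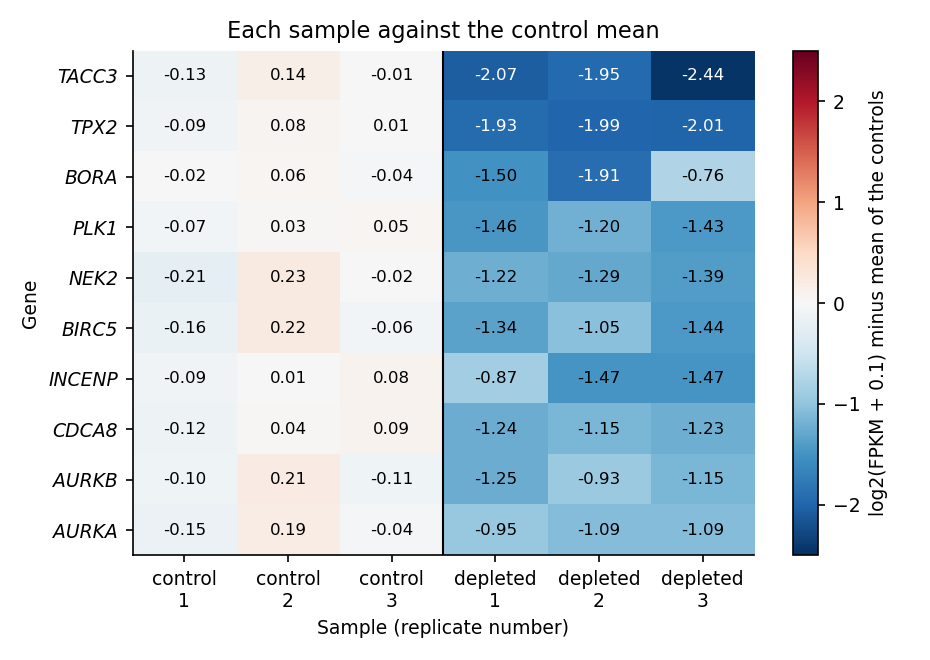
Each cell gives log2(FPKM + 0.1) of a gene in a sample minus the mean of the 3 controls, for the 10 genes (rows, ordered by log2 fold change) and 6 samples (columns). Values in the OFD1-depleted columns run from -2.44 (TACC3, replicate 3) to -0.76 (BORA, replicate 3), and all of them are below every control value of the same gene.

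The order of levels changed between the groups. In control cells the means ran from TPX2 (45.7 FPKM) through PLK1, BIRC5, TACC3 and AURKB to AURKA (29.1 FPKM), and within this run neighbours overlapped over the 3 samples. A gap separated AURKA from CDCA8 and NEK2, which overlapped each other, and INCENP and BORA each lay clear below. After depletion PLK1, BIRC5, AURKB and AURKA formed the highest run, from 17.3 to 14.0 FPKM with overlapping neighbours. TPX2 (11.3 to 11.9 FPKM) then stood alone, TACC3 overlapped CDCA8, NEK2 overlapped INCENP, and BORA was again lowest.

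Ratios between a pair of genes within a sample do not move with the scaling of that sample, and 45 pairs were compared. The log2 ratio of depleted and control samples did not overlap in 19 pairs, and in 29 pairs its mean moved by less than 0.5. Pairs of TPX2 or TACC3 with the other 8 genes made up most of the former, with 15 of 16 not overlapping. TPX2 and TACC3 were singled out after their fold changes were seen, so this count follows largely from that choice. No share over pairs of other genes was computed beside these counts. AURKA to TPX2 had a log2 ratio of -0.72, -0.54 and -0.70 in control and 0.32, 0.25 and 0.27 in OFD1-depleted replicates. Aurora A transcript was thus below that of its activator in every control sample and above it in every depleted sample, a shift of 0.93. The largest shift was AURKA to TACC3, from -0.23 ± 0.0391 to 0.88 ± 0.245 (SD, n = 3 each). TPX2 to TACC3 moved by 0.18 with overlapping groups. Exact permutation over samples gave p = 0.1 at best for a single pair, and 0.237 after Benjamini-Hochberg adjustment over the 45 pairs, so no pair passed a threshold of 0.05, which 3 samples against 3 cannot reach.

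Within the passenger complex the ratios moved little, which was not particular to it, as PLK1 to NEK2 moved by -0.06 and AURKA to AURKB by 0.07. Over its 6 pairs the largest shift was 0.17, for AURKB to BIRC5, from -0.28 ± 0.0555 to -0.11 ± 0.101 (SD, n = 3 each), and it was the 1 pair of the 6 that did not overlap (exact permutation p = 0.1). INCENP to BIRC5 went from -1.93 ± 0.187 to -1.92 ± 0.443 and BIRC5 to CDCA8 from 1.38 ± 0.169 to 1.30 ± 0.151 (SD, n = 3 each). AURKA to AURKB, the ratio of both Aurora kinases, went from -0.14 ± 0.0644 to -0.08 ± 0.231 with overlapping samples. BORA to PLK1, the cofactor against the kinase it helps to switch on, went from -3.87 ± 0.0765 to -3.90 ± 0.693, and its spread after depletion is too wide to tell whether the ratio moved.

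**Figure D3:**
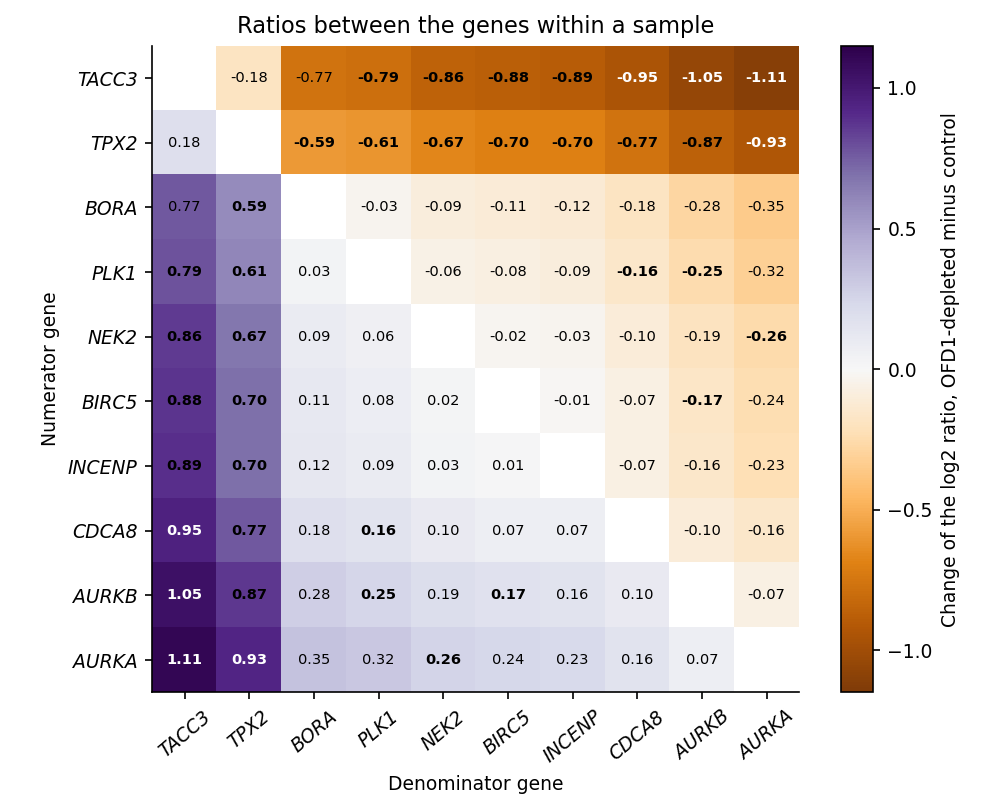
Change of the within-sample log2 ratio (row gene over column gene), OFD1-depleted minus control, for all pairs of the 10 genes, with bold type where the 3 samples of one group do not overlap those of the other. The rows of TACC3 and TPX2 hold the large changes, down to -1.11 for TACC3 over AURKA. The passenger complex genes change by at most 0.17 among themselves, and other pairs such as PLK1 over NEK2 (-0.06) change as little.

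Relatives of these genes in the same families were read in the same comparison. Among the Polo-like kinases, PLK4, the kinase of centriole duplication, had 6.08, 7.59 and 6.05 FPKM in control and 2.67, 2.09 and 2.76 FPKM in OFD1-depleted replicates. It fell as much as PLK1 did, with a log2 fold change of -1.36 (SE 0.175, limma adjusted p = 0.00037), and the log2 ratio of PLK1 to PLK4 was 2.75 ± 0.175 in control and 2.74 ± 0.352 after depletion (SD, n = 3 each). PLK2, the most abundant Polo-like kinase here, had 221, 245 and 208 FPKM in control and 281, 231 and 268 FPKM after depletion, with overlapping groups (log2 fold change 0.21, limma adjusted p = 0.337). For PLK3, a stress-responsive member, all depleted values (21.8, 24.4 and 19.9 FPKM) lay above the control values (13.2, 15.8 and 18.8 FPKM), and its log2 fold change of 0.47 missed the threshold (limma adjusted p = 0.0574), although it was called higher under quantile normalization (0.54, adjusted p = 0.0309) and in 5 of 17 alternatives in all. PLK5 was not tested, with no sample above 0.181 FPKM.

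Of 9 NEK kinases tested, 1 was called, NEK2. The log2 fold changes of the other 8 were -0.39 for NEK4, -0.35 for NEK1, -0.25 for NEK8, -0.13 for NEK3 (0.08 with array weights), 0.15 for NEK11, 0.24 for NEK9, 0.30 for NEK6 and 0.37 for NEK7, with limma adjusted p-values from 0.145 to 0.675. NEK9, NEK6 and NEK7 form the kinase relay that acts on centrosome separation in mitosis. NEK7 was the most abundant NEK, at 75.3, 80.4 and 66.5 FPKM in control and 113, 75.2 and 103 FPKM after depletion, and NEK6 had 23.1, 23.1 and 23.4 FPKM against 33.9, 24.8 and 27.8 FPKM. Without OFD1-depleted replicate 2, NEK6 (0.40, adjusted p = 0.034) and NEK7 (0.55, adjusted p = 0.00987) were called higher. NEK5 and NEK10 were under the filter.

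Among the TACC proteins, TACC1 had 19.7, 18.8 and 18.3 FPKM in control and 19.2, 12.6 and 18.6 FPKM after depletion, and TACC2 had 10.2, 11.7 and 12.3 FPKM against 11.5, 9.46 and 11.5 FPKM. Both overlapped between groups, with log2 fold changes of -0.19 and -0.07 (limma adjusted p = 0.469 and 0.774), and the sign of TACC2 turned under quantile normalization (0.02), with array weights (0.07) and without OFD1-depleted replicate 2 (0.02). The partners of TACC3 in its spindle bridge divided. CKAP5, the microtubule polymerase, fell from 20.5, 21.4 and 20.1 FPKM to 8.56, 7.21 and 7.64 FPKM (log2 fold change -1.40, SE 0.128, limma adjusted p = 4.35e-05). The clathrin heavy chain CLTC, which also serves endocytosis, had 84.1, 77.5 and 73.6 FPKM in control and 82.6, 57.5 and 86.3 FPKM after depletion (-0.08, limma adjusted p = 0.796). CLTA (0.25), CLTB (-0.03) and the phosphoinositide kinase PIK3C2A (0.15) were not called, CLTC turned to 0.11 without OFD1-depleted replicate 2, and CLTB turned under median-of-ratios scaling (0.03).

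Ratios to relatives or partners within a sample are given as a description, with no test, because the pairs were chosen after the fold changes of both genes were seen. The log2 ratio of TACC3 to TACC2 went from 1.58 ± 0.116 to -0.51 ± 0.387, that of NEK2 to NEK7 from -2.37 ± 0.211 to -4.04 ± 0.312, and that of PLK1 to PLK3 from 1.49 ± 0.19 to -0.35 ± 0.0773 (SD, n = 3 each). TACC3 to CKAP5 went from 0.72 ± 0.111 to -0.04 ± 0.29 (SD, n = 3 each). AURKC, the third Aurora kinase and known mainly from germ cells, had at most 0.356 FPKM and was not tested.

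**Figure D4:**
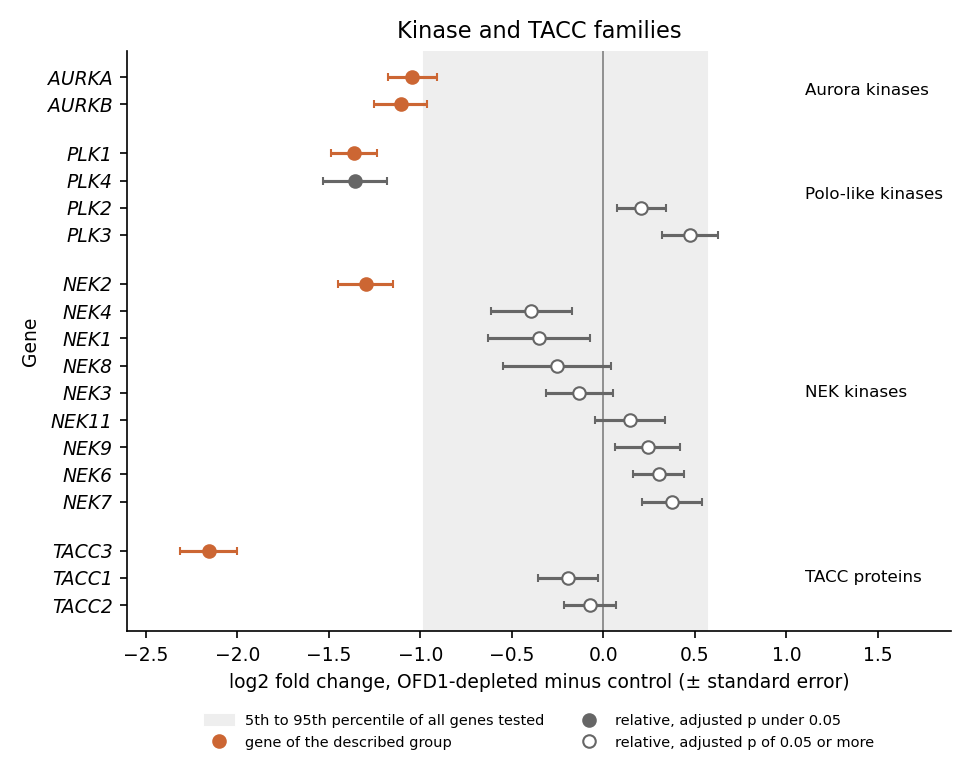
Log2 fold change (OFD1-depleted minus control) with its standard error for the Aurora, Polo-like and NEK kinases and TACC proteins tested, with filled points where the limma adjusted p was under 0.05 and a grey band from the 5th to the 95th percentile of all genes tested. AURKA, AURKB, PLK1, PLK4, NEK2 and TACC3 lie to the left of the band, and the other genes lie inside it, where the sign of TACC2 (-0.07) turned under quantile normalization and that of NEK3 (-0.13) with array weights.

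Cofactors and substrates of Aurora A were lower in part. Of 18 tested, 9 were called lower, 1 higher and 8 neither, with a median log2 fold change of -0.41. The smallest p-values were those of BRCA1, a repair and centrosome protein (log2 fold change -2.71, limma adjusted p = 2.31e-05), GTSE1, a microtubule-associated protein (-1.77, adjusted p = 2.54e-05), and KIF11, the plus-end motor that pushes spindle poles apart (-1.68, adjusted p = 3.34e-05). BRCA1 went from 5.19, 5.65 and 5.12 FPKM to 0.84, 0.553 and 0.825 FPKM, further than any of the 10 kinase and partner genes. NEDD9, a scaffold that activates Aurora A at the basal body, was the 1 gene called higher, with 8.94, 8.8 and 8.56 FPKM in control and 14.2, 11.2 and 13.7 FPKM after depletion (0.56, adjusted p = 0.0179). Its groups did not overlap, and the log2 ratio of AURKA to NEDD9 within samples went from 1.72 ± 0.182 to 0.11 ± 0.153 (SD, n = 3 each). The call for NEDD9 was lost in 8 of 17 alternatives, among them scaling to the same total (0.41, adjusted p = 0.106) and each sample left out except OFD1-depleted replicate 2, with adjusted p from 0.000637 to 0.106 over the 17.

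Regulators and targets of the passenger complex were the list with the lowest median, -1.22. Of 21 tested, 16 were called lower, 0 higher and 5 neither. BUB1, the kinase whose histone mark recruits the complex to centromeres, went from 22.2, 24.2 and 22.9 FPKM to 8.46, 7.4 and 7.75 FPKM (log2 fold change -1.54, limma adjusted p = 2.41e-05). NDC80, the microtubule-binding kinetochore protein that Aurora B phosphorylates, and KIF2C, the microtubule depolymerase at centromeres, had log2 fold changes of -1.67 and -1.38 (limma adjusted p = 3.81e-05 and 4.35e-05). The 5 genes that did not pass, named after their values were seen, were RCC2, MIS12, CBX3, STMN1 and CDC14B.

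Docking partners and substrates of PLK1 gave 15 lower, 0 higher and 6 neither of 21 tested, with a median of -1.16. ESPL1, the separase that cuts cohesin, went from 4.91, 4.88 and 5.51 FPKM to 1.14, 1.05 and 1.19 FPKM (log2 fold change -2.09, limma adjusted p = 3.54e-05). PKMYT1, which holds CDK1 inactive, and FBXO5 (EMI1), the inhibitor of the anaphase-promoting complex that PLK1 marks for destruction, had log2 fold changes of -1.62 and -1.39 (limma adjusted p = 4.35e-05 for both). PKMYT1 is known as a restraint on entry into mitosis, and it fell beside genes that drive mitosis. WEE1, another restraint of CDK1 in the list, named after its values were seen, was not called (0.15, limma adjusted p = 0.522).

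Targets and regulators of NEK2, at the linker between centrioles and elsewhere, gave 4 lower, 0 higher and 8 neither of 12 tested, with a median of -0.45. NDC80 was given above, and STK4 (MST1), a kinase of the list, was at -0.77 on the log2 scale (limma adjusted p = 0.00622). KIF24, a centriolar kinesin that NEK2 phosphorylates, had -1.20 (adjusted p = 0.0135). STK3 (MST2) and SAV1, named after their values were seen, were not called (0.14 and 0.08, limma adjusted p = 0.612 and 0.742). LRRC45, named after its values were seen, is a linker protein and the fourth gene called (-0.76, adjusted p = 0.0198). The linker genes CEP250 (-0.58), CROCC (-0.50), CNTLN (-0.39), CEP68 (-0.30) and CEP44 (-0.11), also named after their values were seen, were not called. Their limma adjusted p-values ran from 0.095 to 0.797. The count of lower genes was 2 without control replicate 1 and 2 without control replicate 3, where KIF24 was lost with adjusted p of 0.0525 and 0.0702.

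Of 29 genes tested that switch the kinases off, among them phosphatase subunits, the ubiquitin ligases that degrade Aurora A, Aurora B or PLK1 and their enzymes, 4 were called lower, 1 higher and 24 neither, with a median of -0.08. These counts are close to the shares over all genes tested, 11.9% lower and 5.07% higher, and show nothing particular to the list. CDC20, the mitotic activator of the anaphase-promoting complex, went from 52.8, 53.2 and 56.4 FPKM to 24.3, 25.4 and 22.6 FPKM (log2 fold change -1.16, limma adjusted p = 9.08e-05). UBE2C, a ubiquitin-conjugating enzyme of that complex, had -1.23 (limma adjusted p = 0.000131) and FBXL7, a ligase subunit for Aurora A, -0.85 (adjusted p = 0.00613). PPP6C, the catalytic subunit of the phosphatase that opposes Aurora A bound to TPX2, had 14.4, 16.2 and 12.5 FPKM in control and 21.0, 19.6 and 22.2 FPKM after depletion (0.54, adjusted p = 0.0194). Its groups did not overlap, and its call was lost in 7 of 17 alternatives, with adjusted p from 0.00141 to 0.113 over the 17 (0.0744 without control replicate 1, 0.113 without control replicate 3, 0.0532 without OFD1-depleted replicate 1 and 0.0646 without OFD1-depleted replicate 3).

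Activators and repressors of G2 and M phase genes, the class whose letters were searched in the promoters above, were pooled with partner and related factors. This list gave 8 lower, 1 higher and 10 neither of 19 tested, with a median of -0.44. The count does not separate activators from repressors. E2F1, an activator at the start of S phase, went from 20.3, 22.4 and 20.9 FPKM to 6.58, 6.9 and 6.19 FPKM (log2 fold change -1.68, limma adjusted p = 1.69e-05). FOXM1, the forkhead factor that binds the MuvB core at CHR promoters, went from 27.8, 34.6 and 32.4 FPKM to 17.8, 17.4 and 16.1 FPKM (-0.88, limma adjusted p = 0.00099), and RBL1 (p107), a pocket protein, had -1.66 (adjusted p = 0.00118). E2F5, a repressor that works with pocket proteins, rose from 2.93, 2.86 and 3.4 FPKM to 7.04, 6.97 and 6.61 FPKM (1.14, adjusted p = 0.00039), and its call held in each of 16 alternatives. Without control replicate 1 the count of lower genes was 5.

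Genes with which Aurora A, PLK1 or NEK2 take down the cilium were listed with other cilium and centriole genes, such as CCP110 and INPP5E. This list gave 7 lower, 1 higher and 9 neither of 17 tested, with a median of -0.45. OFD1, the target of the hairpin, is among the 7. TCHP (trichoplein), which activates Aurora A at the mother centriole, went from 6.54, 8.05 and 7.11 FPKM to 3.52, 3.08 and 2.96 FPKM (log2 fold change -1.16, limma adjusted p = 0.000478), and NDE1, a brake on cilium length, had -1.12 (adjusted p = 0.000697). NEDD9 was the gene called higher. The count of lower genes was 4 without control replicate 1 and 3 without control replicate 3. Several genes sit in more than 1 of these lists, so the counts are not independent, and the share of all genes tested that was called lower was 11.9%.

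Across the 6 samples, the genes whose log2(FPKM + 0.1) followed the mean of the 10 genes most closely were UBTF (Pearson r = 0.9993), ARRB2 (0.9988), CCNF (0.9984), ERLEC1 (0.9984) and OSTC (0.9982). UBTF is a factor of ribosomal RNA transcription, ARRB2 a beta-arrestin, CCNF the cyclin F of a ubiquitin ligase, ERLEC1 a lectin of the endoplasmic reticulum and OSTC a subunit of the oligosaccharyltransferase. OSTC had 89.1, 97.1 and 88.1 FPKM in control and 39.0, 39.0 and 39.0 FPKM after depletion, whereas UBTF went from 19.5 ± 0.586 to 12.9 ± 0.216 FPKM (SD, n = 3 each), a smaller change than in any of the 10 genes. In all, 111 of the genes tested had an r over 0.99, a count that includes those of the 10 genes above it. The 10 genes themselves ran from 0.889 (BORA) to 0.9987 (TPX2), values raised by the part that each gene has in that mean. The points fall into the 2 groups of 3 samples, so r is set largely by the gap that these genes share, and no p-value is given.

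Counts over all genes, against which the 10 genes are read, moved with the processing more than the 10 did. Of 12025 genes tested, 1429 were called lower and 610 higher. Scaling to the same total gave 1988 lower and 268 higher, and quantile normalization gave 1317 and 1084. Leaving out control replicate 1 gave 904 lower and 251 higher, and leaving out control replicate 3 gave 867 and 244. The number called higher was 321, 1077 and 398 without OFD1-depleted replicates 1, 2 and 3. Each of the 10 genes was called lower under every scaling tried and with each sample left out in turn.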

How the data were processed

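The authors aligned 150 bp paired-end reads from directional libraries with HISAT2 (2.0.5 in the submitters' processing notes) against Ensembl GRCh38 version 94, and they deposited 1 FPKM value per gene and sample, computed with StringTie. The strand setting of the counting is not given in the sources used here. The labels' extraction text speaks of retinas and names a pair of library kits, while the methods describe RPE1 cells. No counts were recovered, because 20.9% to 24.7% of low values of single-exon genes lay within 0.05 of whole multiples of a step, where an even spread gives 10%. No count test or depth-based interval was therefore used. Groups and replicate numbers came from the sample titles.

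Genes averaging 1 FPKM or more over 6 samples were compared as log2(FPKM + 0.1), which understates changes of low genes, with limma 3.58.1 (R 4.3.3), a variance trend and two-sided p-values adjusted by Benjamini-Hochberg over all genes tested. The script was tested on simulated data. Ratios among the 10 genes were compared by two-sided exact permutation of the samples. Promoters were read from RefSeq with Python 3.11.15, numpy 2.4.6, pandas 2.3.3 and scipy 1.17.1, and figures were drawn with matplotlib 3.10.9. The genes and lists were chosen with earlier results of these data known. Named were the 10 genes, OFD1, their families and overlapping or copied genes, up to 3 called genes with the smallest p in each direction per list, and the 5 genes most alike. Alternatives were other pseudocounts, filters, scalings and limma settings, a replicate block and each sample left out.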

Additional observations from a re-analysis of the deposited data

How the results depend on the processing

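The 10 genes were refitted under 17 alternatives, and 168 of 169 values kept direction and call, with log2 fold changes from -2.30 to -0.92 and 0 reversals. The exception was BORA without a filter (adjusted p = 0.0734), where 28501 genes were tested. With a filter at a mean of 5 FPKM, BORA was not tested and 9 genes were called. Pseudocounts of 1 and 0.01 left 20 and 18 of the 45 ratios not overlapping, against 19. Of 769 values for 46 other named genes, 731 kept direction and call. PLK3 was called higher in 5 of 17 alternatives. Signs turned for NEK3 (0.08), TACC2 (0.07) and CLTC (0.03) with array weights, for TACC2 under quantile normalization (0.02) and for CLTB under median-of-ratios scaling (0.03). With 1 sample left out, TACC2 ranged from -0.15 to 0.02, CLTC from -0.18 to 0.11 and CLTB from -0.25 to 0.12.

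Over all genes, 2039 were called (1429 lower, 610 higher). Without a filter 1083 were (823 and 260), with array weights 3956 (2263 and 1693), with the same total 1988 lower and 268 higher, and under quantile normalization 1084 higher. Scaling to the same total moved the median of all genes by -0.145. With 1 sample left out the total ran from 1111 to 2818, genes lower from 867 to 1741 and genes higher from 244 to 1077. A filter at 5 FPKM, which tests fewer genes, left 1 Polo-like kinase, 5 G2 and M phase factors and 4 genes of the cilium list lower. With 1 sample left out the lower counts ran from 2 to 4 for the NEK2 list, 5 to 8 for G2 and M phase factors and 3 to 8 for the cilium list. Except for the filters, the causes were not tested.

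Samples with the same replicate number deviated together by r = 0.0579, 0.0481 and 0.011 across genes, so the numbers were not taken as pairs. A block for the replicate number called 2296 genes (1534 lower, 762 higher), all 10 genes among them, and samples 1 and 2 of each group correlated best with their own number, whereas those numbered 3 did not. Depth is not known, so the precision of low values such as those of BORA could not be given.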
